A study of Solanum lycopersicum with 6 samples.

Results

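The WUSCHEL-CLAVATA and KNOX genes of the shoot meristem were followed in dormant axillary buds of tomato, which sit in the angle between leaf and stem and can grow out into side shoots. The set was 9 gene IDs, listed by gene name with no threshold on their values, out of 34075 IDs in each of 2 deposited tables, and all 9 were present in both. The libraries came from rSBP15, 156OE and MT plants, with 2 libraries per genotype and 6 in all. All 3 genotypes are in the cultivar labelled MT, known as the dwarf tomato Micro-Tom, which carries mutations in the flowering gene SELF-PRUNING and in a gene of brassinosteroid synthesis, and buds were taken 25 days after germination. The line rSBP15, whose sample titles read rSBP15OE, is known from the study as an overexpressor of a form of the SBP15 gene that the microRNA miR156 cannot repress. The line titled 156OE is known from the study as an overexpressor of miR156, which represses genes of the SBP-box family of transcription factors. MT plants are the wild type. Each library pooled about 20 buds from 4 to 5 plants, and the promoters and the number of transgenic lines are not given in the sources used here. The labels do not say whether the libraries of a genotype came from separate sowings, so the p-values measure only the spread between these pools. The question asked was how the genotypes differ in the transcripts of their buds. The transgene transcripts were not checked here.

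In a shoot meristem, WUS is a homeodomain transcription factor that keeps the stem cells in their state. The stem cells secrete CLE peptides, CLV3 being the founding member, which act through receptor kinases to restrain WUS, so that the meristem keeps its size. Class I KNOX genes are homeodomain genes that keep meristem cells from differentiating and in tomato also shape the compound leaf, whereas class II KNOX genes are active mainly in differentiating organs. By role the set held 1 homeodomain gene of the stem cells (WUS), 2 CLE ligands (CLV3 and CLE9), 1 receptor kinase (FAB, the tomato CLV1), 1 arabinosyltransferase (FIN, which adds sugars to CLE peptides), 3 class I KNOX genes (Tkn1, Tkn2 and Tkn4) and 1 further KNOX gene. The tables give IDs without names, and 0 of their 34075 IDs matched the RefSeq gene table, so the names are those under which the IDs were chosen. The chromosome number in the ID was the same as the RefSeq chromosome of that name for WUS (chromosome 2), CLV3 (11), CLE9 (6), CLV1 (4), Tkn1 (4), Tkn2 (2) and Tkn4 (1), while FIN was not matched by name. The ninth ID, Solyc05g005090, had been chosen as LeT12. Its number is that of chromosome 5, where RefSeq lists the KNOX gene TKN3, and RefSeq lists LeT12 on chromosome 7. It is therefore called Solyc05g005090 here. Under the name LeT12 it had been listed as a class II KNOX gene, and which KNOX gene it is, and of which class, was not settled.

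For each gene, the deposited data are a log fold change with its p-value in rSBP15 over MT and the same pair in 156OE over MT. No source gives the logarithm's base. Log fold changes therefore stand as deposited and are not turned into folds. The files hold no expression level, read depth or value per library, so levels cannot be compared between genes. Without a level, it cannot be told whether a small log fold change is a small or a large part of a gene's signal. A standard error (SE) was recovered for each gene from its log fold change and p-value, with 2 libraries against 2, and equals the residual SD. A change of more than 1.41 standard errors means that the 2 libraries of the line and the 2 MT libraries did not overlap, whatever their single values, and a change of less than 1 standard error means that they did. Adjusted p-values follow Benjamini and Hochberg, computed across the genes not listed at a log fold change of 0, 25329 in rSBP15 and 24920 in 156OE. All 9 genes were among these in both tables, so each had a signal in at least 1 library of each comparison. In such bulk samples, fewer cells of a type and less RNA per cell cannot be told apart.

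In rSBP15 buds Solyc05g005090, Tkn4 and Tkn2 had the highest log fold changes of the set over MT, at 0.70, 0.67 and 0.48 in the authors' deposited table. Tkn4 and Tkn2 are class I KNOX genes, while the class of Solyc05g005090, listed as a KNOX gene, was not settled. WUS and CLV3 were below MT in both lines, FAB above MT in both, and CLE9 was close to undetected in every genotype. None of these values passed the adjusted threshold. At an adjusted p under 0.05 (the authors' limma-type p-values), 0 of the 9 genes were called in rSBP15, where 5.58% of all tested genes were, and 0 of 9 in 156OE, where 0.0201% were. At a deposited p under 0.05 without adjustment, 4 of the 9 passed in rSBP15 against 33.3% of all tested genes, with Tkn4 and Solyc05g005090 higher and WUS and CLV3 lower. In 156OE 2 of 9 passed against 13.2%, with FAB higher and WUS lower. The libraries of line and wild type did not overlap for 6 of the 9 genes in rSBP15, against 62.3% of all tested genes, and for 5 of the 9 in 156OE, against 37.9%. The counts in rSBP15 are thus near those of the whole table. The unadjusted and library counts in 156OE were somewhat above it, a gap of few genes that was not tested. The median log fold change of the 9 genes was 0.053 in rSBP15 and -0.11 in 156OE, beside 0.00053 and -0.00059 over all tested genes. The median size of the change was 0.215 in rSBP15 and 0.136 in 156OE, beside 0.109 and 0.0596 over all tested genes. The median SE of the 9 genes was also larger, 0.132 in rSBP15 and 0.104 in 156OE, beside 0.0514 and 0.0624. The larger changes thus came with a wider spread between libraries.

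**Figure D1:**
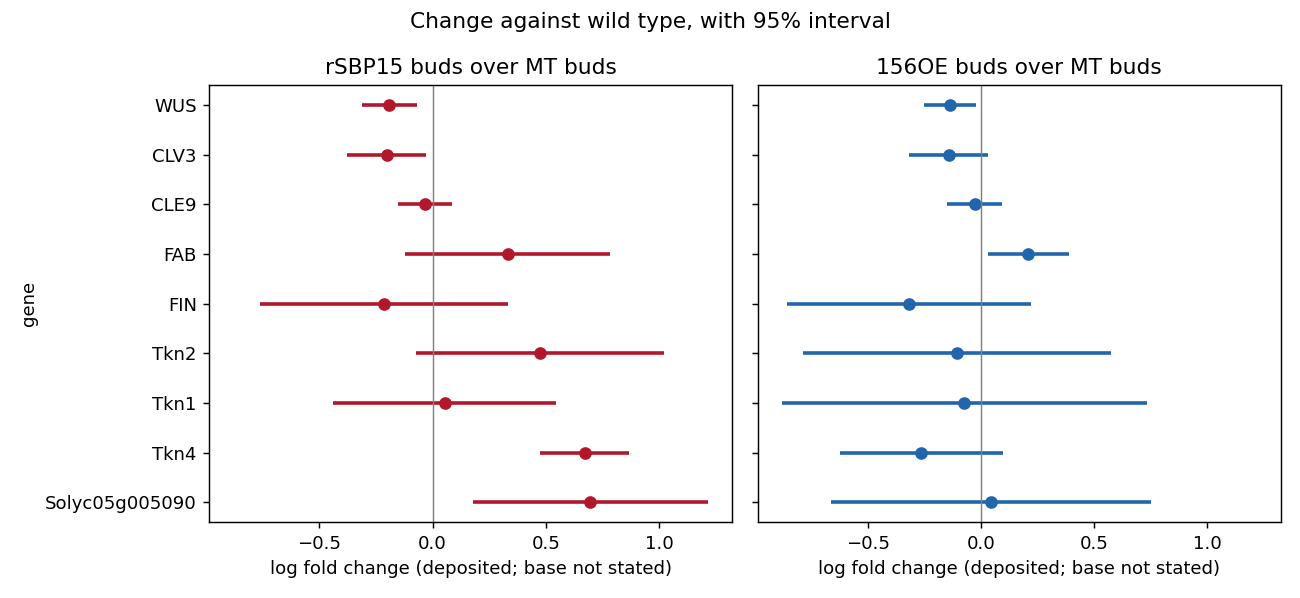
Log fold change over MT (x axis, as deposited, base not stated) of the 9 genes (y axis) in rSBP15 on the left and 156OE on the right. Points are the authors' deposited values and lines are 95% intervals from the recovered spread of 2 libraries against 2, not adjusted for the number of genes. The intervals of WUS, CLV3, Tkn4 and Solyc05g005090 in rSBP15 and of WUS and FAB in 156OE leave out 0.

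WUS (Solyc02g083950), the stem cell gene, was lower than in wild type in both lines, but not past the adjusted threshold. The authors' deposited table for rSBP15 gave a log fold change of -0.19 (SE 0.0359, 95% interval -0.31 to -0.067, adjusted p 0.0961). The authors' deposited table for 156OE gave -0.14 (SE 0.0330, interval -0.25 to -0.022, adjusted p 0.332). In both comparisons the MT libraries lay above those of the line without overlap. Since both tables share the MT libraries, the gap between the 2 libraries of a genotype could be bounded. It was at most 0.0717 in rSBP15, 0.0660 in 156OE and 0.0660 in MT, on the deposited log scale.

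CLV3 (Solyc11g071380), the peptide ligand that in Arabidopsis restrains WUS, gave values close to those of WUS. In rSBP15 its log fold change was -0.20 in the authors' deposited table (SE 0.0512, 95% interval -0.38 to -0.027, adjusted p 0.129). The value for 156OE was -0.14 in the authors' deposited table (SE 0.0510, interval -0.32 to 0.033, adjusted p 0.435). As for WUS, the MT libraries lay above those of either line without overlap. Because both lines were measured against the same MT libraries, the lower values in the lines are not independent of each other.

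CLE9 (Solyc06g074060), the other CLE ligand, was close to undetected. In the authors' deposited table for rSBP15 its log fold change was -0.034, equal in size to its SE of 0.0344, which is what a gene with a signal in 1 of the 4 libraries gives. Taking a gene without signal as 0, the values follow for every library: 0 and 0 in rSBP15, 0.0136 and 0 in 156OE, and 0.0687 and 0 in MT, on the deposited log scale. Each genotype thus had at least 1 library without CLE9 signal, and the groups overlapped. The log fold change of -0.028 in 156OE in the authors' deposited table (adjusted p 0.770) and that in rSBP15 (adjusted p 0.517) rest on these few values.

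FAB (Solyc04g081590), a receptor kinase of the CLAVATA pathway in tomato, had positive values in both lines. For rSBP15 its log fold change was 0.33 in the authors' deposited table (SE 0.132, 95% interval -0.12 to 0.79, adjusted p 0.214). That for 156OE was smaller, with a narrower interval, at 0.21 in the authors' deposited table (SE 0.0517, interval 0.029 to 0.39, adjusted p 0.341). The libraries of each line lay above those of MT without overlap, and as for CLV3 both values rest on the same MT libraries. Most of the spread was within rSBP15, whose 2 libraries differed by 0.243 to 0.264, while the 2 libraries of 156OE and the 2 of MT each differed by at most 0.103.

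FIN (Solyc11g064850), the arabinosyltransferase, stood at a log fold change of -0.22 for rSBP15 in the authors' deposited table (SE 0.160, 95% interval -0.76 to 0.33, adjusted p 0.412). For 156OE the authors' deposited table gave -0.32 (SE 0.156, interval -0.86 to 0.22, adjusted p 0.535), the lowest value of the 9 genes in either table. In 156OE its libraries lay below those of MT without overlap, and in rSBP15 the tables do not decide whether they overlapped. The wide intervals hold changes of either sign.

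**Figure D2:**
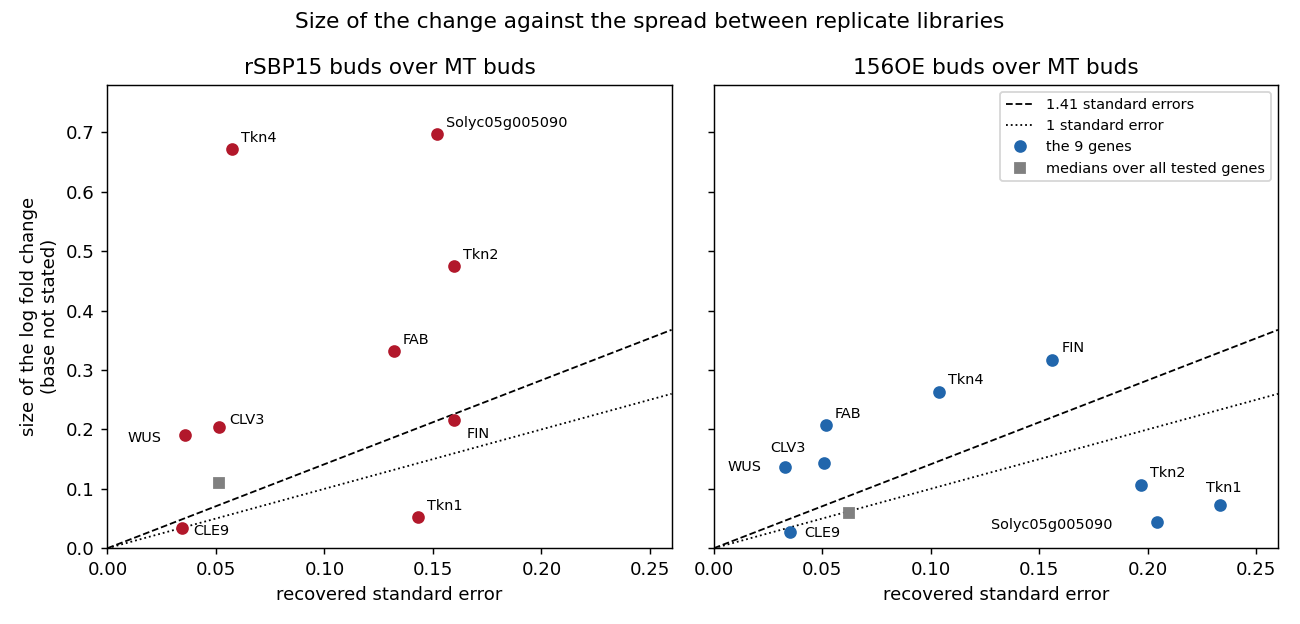
Size of the log fold change over MT (y axis, base not stated) against its recovered standard error (x axis, same scale) for the 9 genes in rSBP15 on the left and 156OE on the right. Above the dashed line at 1.41 standard errors the libraries of line and wild type do not overlap, below the dotted line at 1 they do, and the grey square marks the medians over all tested genes. In rSBP15, Tkn4 stands apart with a change of 0.67 at a standard error of 0.0576, while the KNOX genes other than Tkn4 have standard errors from 0.143 to 0.160.

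Among the class I KNOX genes, Tkn4 (Solyc01g100510) had in rSBP15 the largest change of the 9 relative to its spread. The authors' deposited table gave it a log fold change of 0.67 in rSBP15, a size above that of 93.3% of tested genes (SE 0.0576, 95% interval 0.47 to 0.87). Its adjusted p of 0.0524 missed the threshold, and over the other ways of testing it ranged from 0.0157 to 0.116, 3 of the 5 lying below 0.05. Those 3 ways called 14.7%, 11.3% and 19.9% of all tested genes. In 156OE its value had the other sign, -0.26 in the authors' deposited table (SE 0.104, interval -0.62 to 0.096, adjusted p 0.464). The rSBP15 libraries lay above those of MT and the 156OE libraries below them, with no overlap in either comparison. The gap between the 2 libraries of a genotype was at most 0.115 in rSBP15, 0.173 to 0.208 in 156OE and at most 0.115 in MT.

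Tkn2 (Solyc02g081120), the tomato counterpart of the Arabidopsis meristem gene SHOOT MERISTEMLESS, stood at a log fold change of 0.48 for rSBP15 in the authors' deposited table (SE 0.160, 95% interval -0.073 to 1.02, adjusted p 0.176). Its value for 156OE in the authors' deposited table was -0.11 (SE 0.197, interval -0.79 to 0.57, adjusted p 0.846). The rSBP15 libraries lay above those of MT without overlap, while those of 156OE and MT overlapped. The 2 libraries of 156OE differed from each other by 0.231 to 0.394.

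Tkn1 (Solyc04g077210), the third class I gene, stood at 0.053 for rSBP15 in the authors' deposited table (SE 0.143, 95% interval -0.44 to 0.54, adjusted p 0.799). In the authors' deposited table for 156OE the value was -0.073 (SE 0.233, interval -0.88 to 0.73, adjusted p 0.917). Its libraries overlapped with those of MT in both lines, and the intervals are wide enough to hold a change as large as that of Tkn2. Its SE for 156OE was the largest among the 9 genes, and the 2 libraries of that line differed by 0.369 to 0.467.

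Solyc05g005090, the further KNOX gene, had the highest value of the set in rSBP15, listed at 0.70 in the authors' deposited table (SE 0.152, 95% interval 0.18 to 1.22, adjusted p 0.111). For 156OE the authors' deposited table listed 0.044 (SE 0.204, interval -0.66 to 0.75, adjusted p 0.945). Its rSBP15 libraries lay above those of MT without overlap, and those of 156OE and MT overlapped.

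The lines were then set against each other. Since both tables rest on the same MT libraries, the difference of the log fold changes, rSBP15 minus 156OE, is that of rSBP15 over 156OE, and it was tested with the residual variance set to the highest value compatible with both tables. At an adjusted p under 0.05 (limma's moderated test) 0 of the 9 genes were called, as were 0.00% of the 25657 genes tested. At an unadjusted p under 0.05, 1 of the 9 passed, against 21.7% of all tested genes. That gene was Tkn4, with a difference of 0.94, from 0.67 in rSBP15 and -0.26 in 156OE in the authors' deposited tables, an SE of at most 0.119, a 95% interval of 0.60 to 1.27, and p-values of 0.00321 unadjusted and 0.105 adjusted. In a fit of all 6 libraries at the largest variance its adjusted p was 0.0156, where 14.4% of all tested genes were called, and over the 4 alternative tests, this fit included, it ranged from 0.00797 to 0.334.

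The libraries of rSBP15 lay above those of 156OE without overlap for 3 of the 9 genes, against 26.3% of all tested genes (48.4% in either direction). The count is thus near that of the whole table. All 3 had been listed as KNOX genes. Beside Tkn4 these were Solyc05g005090, with a difference of 0.65 (SE at most 0.254, 95% interval -0.043 to 1.35, adjusted p 0.246), and Tkn2, with a difference of 0.58 (SE at most 0.254, interval -0.11 to 1.28, adjusted p 0.279). For Tkn4 the order was rSBP15, MT and then 156OE, with no overlap between any pair of genotypes. For Tkn1 the difference was 0.13 with an interval of -0.62 to 0.87, and the libraries overlapped.

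For the stem cell and CLAVATA genes the differences between the lines were smaller on the deposited scale, which without levels does not rank them against the KNOX genes. WUS differed by -0.054 (95% interval -0.21 to 0.097) and CLV3 by -0.060 (interval -0.27 to 0.15). CLE9 differed by -0.0068 (interval -0.16 to 0.15). FAB differed by 0.12 (interval -0.27 to 0.52) and FIN by 0.10 (interval -0.51 to 0.71). The adjusted p-values of these genes (limma's moderated test) lay between 0.618 and 1, and apart from CLE9, whose libraries overlapped, the tables do not decide whether the libraries of the lines did.

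**Figure D3:**
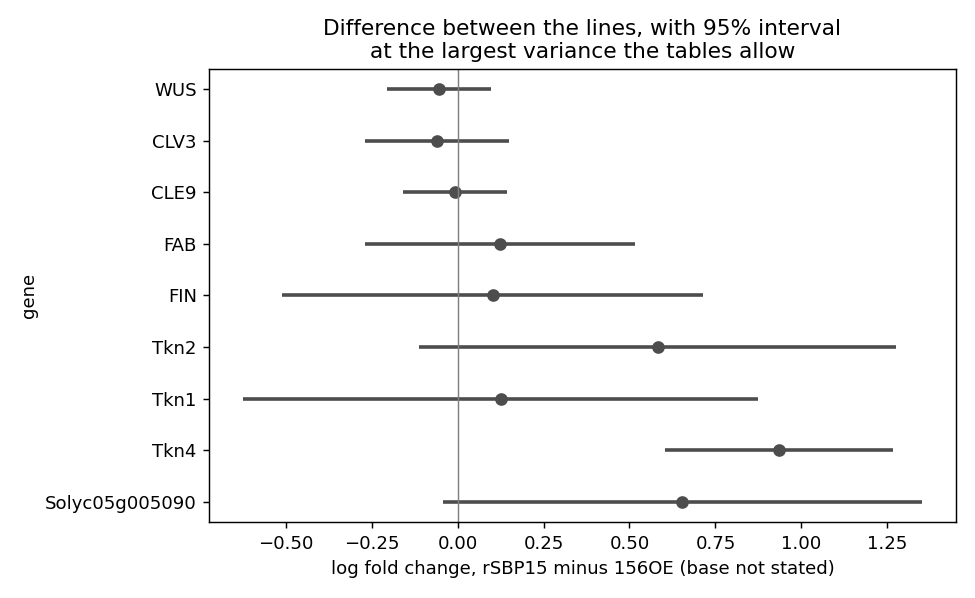
Difference of the log fold changes, rSBP15 minus 156OE (x axis, base not stated), for the 9 genes (y axis). Points are differences of the authors' deposited values and lines are 95% intervals at the largest variance the tables allow, not adjusted for the number of genes. The interval of Tkn4, 0.60 to 1.27, is the one that leaves out 0.

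A further 9 IDs had been listed as genes of the same pathways (WOX genes, CLAVATA signalling, and regulators of WUS or of KNOX genes). They came from general knowledge of tomato loci, with earlier results of these data known. Neither the tables nor RefSeq pair them with names, so they are given by ID. At an adjusted p under 0.05, 1 of the 9 was called in rSBP15, against the 5.58% of all tested genes, and 0 of the 9 in 156OE. The one called was Solyc09g010840, which the authors' deposited table for rSBP15 listed at -1.30 (SE 0.0153). Its adjusted p there was 0.0218, and 0.00434 to 0.0625 over the other ways of testing. The value for 156OE in the authors' deposited table was -0.46 (SE 0.0524, adjusted p 0.214). Its libraries were below those of MT without overlap in both lines, and the difference between the lines was -0.84 (SE at most 0.0546, adjusted p 0.0991). Over the 4 alternative tests of that difference the adjusted p ranged from 0.00439 to 0.334, 3 of the 4 lying below 0.05. Those 3 tests called 7.77%, 14.4% and 23.2% of all tested genes. Of the other 8 IDs, the values listed in the authors' deposited tables ran from -0.37 to 0.42 in rSBP15 and from -0.29 to 0.16 in 156OE. At a deposited p under 0.05 without adjustment, 3 of the 9 IDs passed in rSBP15, against 33.3% of all tested genes. These were Solyc09g010840, Solyc02g077390 and Solyc03g117230, all below MT. In 156OE 2 of the 9 passed, against 13.2%. Libraries of line and wild type did not overlap for 5 of the 9 in rSBP15 (62.3% of all tested genes) and 3 in 156OE (37.9%).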

How the data were processed

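Poly(A) RNA of pooled axillary buds was sequenced from stranded libraries, 2 for each of rSBP15, 156OE and MT, grouped by their titles. The submitters' processing notes name HISAT2 and StringTie. Versions, genome build, annotation, unit and test are not given in the sources used here. Per the file headers, the authors deposited 2 tables, each with a log fold change (logFC) and a p-value (P.Value) per gene and no values per library. Depth is unknown, so no counting error is given. Genes at a log fold change of 0 (8746 in rSBP15, 9155 in 156OE) had a p-value of 1 and were left out of the adjustment.

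Standard errors were worked back from the p-values under limma's moderated test. For a gene with signal in a single library the residual variance is the squared log fold change, which leaves only limma's prior to be found. With 0.360 prior degrees of freedom and variance 1.92e-06, the p-values of 1262 such genes in rSBP15 were met within 1e-06, and with 0.347 and 1.94e-06 those of 1224 genes in 156OE. limma 3.58.1 (R 4.3.3) refitted to the recovered variances returned the same constants. The tables were taken to share the MT libraries, since 402 genes had the same log fold change other than 0 in both, and their recovered variances were equal within a relative 2.9e-05. The variance of the difference between lines then lies between the difference and the sum of the 2 recovered variances. All tests are two-sided. Intervals come from the moderated test, with the prior refitted for the difference.

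All 9 genes are named whatever their result. The genes, lists and tests were chosen with earlier results of these data known.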

Additional observations from a re-analysis of the deposited data

How the results depend on the processing

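The number of the 9 genes called in rSBP15 against MT, 0 as reported, was 1 with the moderation refitted without genes at 0 (14.7% of all tested genes), 1 in the fit of all 6 libraries at the largest variance (11.3%), 3 in that fit at the smallest variance (19.9%), and 4 at an unadjusted p under 0.05 (33.3%). In 156OE against MT it was 0 as reported and 2 at an unadjusted p (13.2%). Between rSBP15 and 156OE it was 0 as reported, and 1 at the mean of both variances (7.77%), 1 and 1 in the fit of all 6 libraries at the largest (14.4%) and smallest variance (23.2%), and 1 at an unadjusted p (21.7%). Every other setting run, among them adjustment over all rows, no moderation and a threshold of 0.01, gave 0. Of 126 adjusted p-values of single genes under these tests, 118 stayed on their side of 0.05 and 8 moved below it: Tkn4 in 3 tests against MT in rSBP15 and in 3 tests between the lines, and WUS (0.0254) and CLV3 (0.0408) in rSBP15 with the smallest variance. The fits of all 6 libraries were not made on values of single libraries but on variances bounded from the 2 recovered variances. They use 3 residual degrees of freedom in place of 2, and their smallest variance is a lower bound. No setting changes a log fold change or its sign.

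No paired analysis was possible because values of single libraries were not at hand, which also kept any replicate from being left out. Depth and expression level are unknown, so low values such as those of CLE9 cannot be weighed by reads.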
